A study of Mus musculus with 6 samples.

Results

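Transcripts of 10 genes that carry amino acid and stress signals to mTORC1 were followed in cultured mouse lung fibroblasts after siRNA knockdown of Wt1, the Wilms tumor transcription factor. The genes are the sestrins Sesn1, Sesn2 and Sesn3, the stress gene Ddit4, the translation repressor Eif4ebp1, the Rag GTPase genes Rragc and Rragd, the folliculin complex genes Flcn and Fnip1, and Depdc5 of the GATOR1 complex. They were picked by symbol, and all 10 were found under their current symbol among the 24061 genes of the count table and passed the low count filter. The high values of Sesn2 and Rragd after Wt1 siRNA prompted the choice, so, although both were in the fit over all genes, their values are given as a description with no p-value and nothing is supported with them. The other 8 were picked for their role, with earlier results of these data known.

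The Wt1 siRNA group holds 3 libraries (W4 to W6) and the control siRNA group another 3 (C1 to C3). Both were made from fibroblasts cultured out of fibrotic lungs of TGF-alpha transgenic mice, so the transgene and the fibrotic source are shared by both groups. The promoter of the transgene, the duplex sequences, the time of harvest and the origin of the libraries from separate animals or cultures are not stated in the sources used here, and p-values therefore measure the spread between these libraries, which may be technical. Library totals were 27.5 to 32.1 after Wt1 siRNA and 26.1 to 30.4 after control siRNA (in units of 1e6 reads), and a count of 3 was worth 0.0926 to 0.113 CPM (reads per 1e6 reads of the library, with the total multiplied by its TMM factor). Wt1 itself stood at 7.91 to 11.4 CPM after Wt1 siRNA, against 48.8 to 55.7 CPM after control siRNA. Summed fibroblast markers (8 of 8 genes tested) were at 30570 to 37800 CPM after Wt1 siRNA and at 19360 to 28620 CPM after control siRNA. That sum is made up mainly of collagen reads, and its members differed in direction. Col1a1 (14930 to 19950 against 6349 to 11040 CPM), Col1a2 (8284 to 10800 against 4740 to 6952 CPM), Dcn (857 to 1072 against 554 to 741 CPM) and Lum (23.55 to 25.7 against 14.2 to 16.5 CPM) lay above the controls. Col3a1 (5349 to 5469 against 6258 to 8493 CPM) and Pdgfra (456 to 633 against 1099 to 1228 CPM) lay below them. Pdgfrb (271 to 350 against 272 to 350 CPM) and Thy1 (5.39 to 12.3 against 4.01 to 8.20 CPM) overlapped. Summed macrophage markers were at 31.3 to 37.0 against 39.9 to 49.8 CPM (5 of 7 tested), epithelial markers at 10.4 to 11.9 against 13.8 to 17.6 CPM (3 of 6 tested), and mesothelial markers at 89.5 to 118 against 121 to 151 CPM (4 of 4 tested). Of the macrophage genes only Cd14 lay below the controls without overlap (5.87 to 10.5 against 15.6 to 20.6 CPM). Lyz2, the most abundant of them, overlapped (18.4 to 24.65 against 18.5 to 21.8 CPM). Among the mesothelial genes Lrrn4 (14.9 to 19.7 against 62.0 to 78.9 CPM) and Upk3b (2.85 to 8.80 against 15.8 to 30.9 CPM) lay below the controls, and Msln (34.3 to 47.2 against 20.3 to 22.7 CPM) and Krt19 (35.9 to 41.9 against 12.7 to 22.7 CPM) lay above them, each without overlap. The sums of endothelial markers (80.3 to 99.1 against 98.4 to 122 CPM) and smooth muscle markers (248 to 315 against 288 to 341 CPM) overlapped between the groups. Of their genes, Kdr (6.69 to 10.7 against 13.05 to 20.7 CPM), Emcn (4.24 to 5.57 against 6.46 to 7.90 CPM) and Des (126 to 168 against 173 to 206 CPM) lay below the controls. Tek (3.82 to 5.61 against 1.79 to 3.52 CPM) and Myocd (1.49 to 1.85 against 0.985 to 1.465 CPM) lay above them. Pecam1, Cdh5, Cldn5, Myh11 and Cnn1 overlapped. Of the epithelial genes, Scgb1a1 had 0 reads in every library, and Sftpc and Sftpb had 0 CPM in all Wt1 siRNA libraries. Epcam, Cdh1 and Cldn18 were read in every library. Epcam (4.96 to 5.91 against 4.69 to 6.825 CPM) overlapped between the groups, as did Cldn18 (1.31 to 2.045 against 2.04 to 2.38 CPM). Cdh1 lay below the controls (3.88 to 5.54 against 6.36 to 8.27 CPM). The part of these marker differences in the results below was not tested. In bulk RNA, fewer cells of a type and less RNA per cell cannot be told apart.

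As background, mTORC1 is a protein kinase complex that promotes translation and growth when amino acids and growth factors are plentiful. Amino acids act through heterodimers of RagA or RagB with RagC or RagD, which bring mTORC1 to the lysosome. The GATOR1 complex switches the RagA or RagB side off, GATOR2 opposes GATOR1, and sestrins bind and restrain GATOR2. Folliculin with its FNIP partners acts on the RagC or RagD side, and growth factors, energy and stress act on the TSC complex and the GTPase Rheb. The eIF4E-binding proteins are substrates of mTORC1 that block cap-dependent translation until they are phosphorylated. Sestrin and Ddit4 transcripts are known to be induced by stress, through factors such as p53, ATF4, FOXO and HIF.

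Besides Sesn2 and Rragd, which were 2.71-fold and 3.55-fold higher after Wt1 siRNA, Eif4ebp1, Ddit4 and Rragc rose. Sesn1, Sesn3, Flcn, Fnip1 and Depdc5 did not pass the test. Of the 8 members that did not prompt the choice, 3 were higher, 0 lower and 5 did not pass (edgeR quasi-likelihood test on the whole table, Benjamini-Hochberg adjusted p below 0.05). An unadjusted p below 0.05 in edgeR was found for 4 of the 8, and for 4551 of all 14190 genes tested. The additional member was Sesn3, which was lower. DESeq2 and limma-voom each gave 3 higher and 0 lower. Over all 14190 genes tested 19.3% passed, 9.05% as higher and 10.3% as lower. For 5 of these 8 members, 4 higher and 1 lower, all Wt1 siRNA libraries lay on one side of all controls, which also held for 36.4% of all tested genes. The median log2 fold change of the 8 was 0.07, and that of all tested genes was 0.00. Among all called genes 46.8% were higher, a share that was 31.9% when libraries were scaled by their totals alone.

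**Figure D1:**
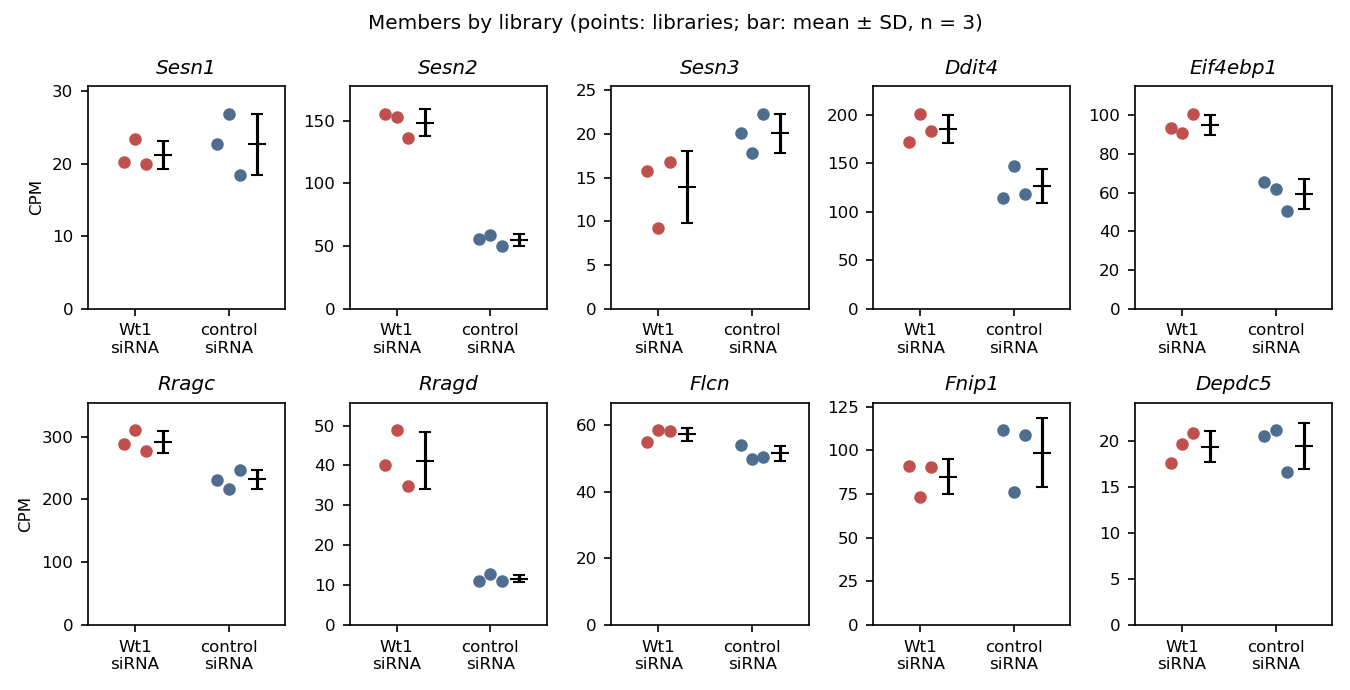
Level of each of the 10 members in CPM in the 3 Wt1 siRNA libraries (red, left) and the 3 control siRNA libraries (blue, right), with the group mean ± SD beside the points; each panel has its own axis from 0. Sesn2 lies between 136 and 156 CPM after Wt1 siRNA and between 49.97 and 58.9 CPM after control siRNA, while the groups overlap for Sesn1, Fnip1 and Depdc5.

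Sesn2 (gene ID 230784, GRCm38 chromosome 4, 132492804 to 132510456, minus strand) encodes sestrin 2, a leucine-binding inhibitor of GATOR2. It had 156, 153 and 136 CPM in W4, W5 and W6, against 55.6, 58.9 and 49.97 CPM in C1, C2 and C3. All Wt1 siRNA libraries were above all controls, with means of 148 ± 10.8 and 54.8 ± 4.51 CPM (SD, n = 3 each). The log2 fold change was 1.44 ± 0.11 (SE).

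Sesn1 (gene ID 140742, chromosome 10, 41810574 to 41908436, plus strand), a sestrin known as a p53 target, had 20.2, 23.4 and 20.0 CPM after Wt1 siRNA, against 22.7, 26.9 and 18.5 CPM after control siRNA. The groups overlapped, and the log2 fold change of -0.10 ± 0.16 did not pass (edgeR adjusted p = 0.729). Its sign changed without C2, the highest of the 6, where it was 0.04.

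Sesn3 (gene ID 75747, chromosome 9, 14276301 to 14326134, plus strand), a sestrin known as a FOXO target, had 15.8, 9.20 and 16.8 CPM after Wt1 siRNA, against 20.1, 17.8 and 22.3 CPM after control siRNA. All Wt1 siRNA libraries lay below all controls, with W5 well below the rest. The log2 fold change of -0.53 ± 0.21 did not pass (edgeR adjusted p = 0.108), and it was -0.30 without W5.

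Levels of different genes were compared as CPM per kb of merged GENCODE exons, since longer transcripts collect more reads. The 3 sestrins together reached 48.9 ± 3.19 CPM per kb after Wt1 siRNA and 22.8 ± 2.20 CPM per kb after control siRNA. Sesn2 made up 88.0%, 87.2% and 86.5% of the sestrin level in W4 to W6, against 69.5%, 68.2% and 70.2% in C1 to C3. Sesn2 was thus the most abundant sestrin in every library, and its share was higher in all 3 Wt1 siRNA libraries. Sesn1 supplied 10.9 ± 0.84% of the level after Wt1 siRNA and 24.9 ± 2.24% after control siRNA. Sesn3 supplied 1.89 ± 0.64% and 5.86 ± 1.22%. These shares rest on Sesn2 and are given without a test.

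**Figure D2:**
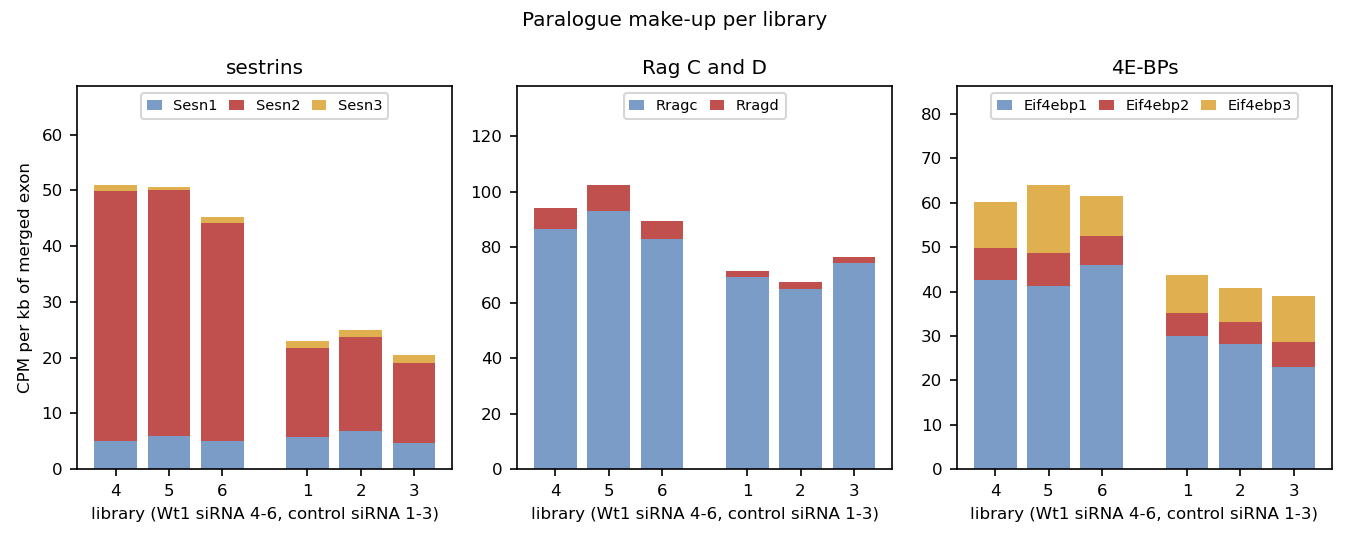
Level of each paralogue in CPM per kb of merged exon, stacked by family (sestrins, RagC and RagD genes, 4E-binding proteins), for W4 to W6 (Wt1 siRNA) on the left and C1 to C3 (control siRNA) on the right of each panel. The sestrin stack is taller after Wt1 siRNA through its Sesn2 segment, Rragc dominates its stack in all 6 libraries, and Eif4ebp1 is the tallest segment of its stack in each.

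Ddit4 (gene ID 74747, chromosome 10, 59949675 to 59951770, minus strand) encodes REDD1, a stress-induced protein that restrains mTORC1 through the TSC complex. It had 172, 201 and 184 CPM after Wt1 siRNA, against 114, 147 and 118 CPM after control siRNA. All Wt1 siRNA libraries were above all controls, and C2 stood above the other controls. The means were 185 ± 14.8 and 127 ± 17.7 CPM, a rise of 1.47-fold (log2 fold change 0.55 ± 0.12, edgeR adjusted p = 0.00818). With a library left out the adjusted p was at most 0.0409. Its relative Ddit4l, which also restrains mTORC1, was far less abundant and rose to 9.93, 10.5 and 10.8 CPM after Wt1 siRNA, against 5.92, 4.82 and 6.01 CPM after control siRNA (log2 fold change 0.90 ± 0.20, edgeR adjusted p = 0.00789).

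Eif4ebp1 (gene ID 13685, chromosome 8, 27260327 to 27275656, plus strand) encodes 4E-BP1, the mTORC1 substrate that sequesters the cap-binding protein eIF4E. It had 93.5, 90.8 and 101 CPM after Wt1 siRNA, against 65.7, 61.7 and 50.6 CPM after control siRNA. The groups were separate, with C3 the lowest of the 6. Eif4ebp1 averaged 95.0 ± 5.22 and 59.3 ± 7.82 CPM, a rise of 1.60-fold (log2 fold change 0.68 ± 0.12, edgeR adjusted p = 0.00241). Leaving out any single library gave an adjusted p of 0.0178 or lower.

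The related Eif4ebp2 rose as well, with 41.9, 43.2 and 38.6 CPM after Wt1 siRNA and 30.1, 29.9 and 32.5 CPM after control siRNA (log2 fold change 0.42 ± 0.12, edgeR adjusted p = 0.0263). That call was lost with library size scaling (adjusted p = 0.0695) and without C1, W4 or W5 (0.0677, 0.109 and 0.0935). Eif4ebp3 had 7.70, 11.3 and 6.63 CPM against 6.42, 5.70 and 7.67 CPM and did not pass (edgeR adjusted p = 0.331). Per kb, Eif4ebp1 made up 70.0 ± 5.06% of the level of the 3 genes after Wt1 siRNA and 65.4 ± 5.43% after control siRNA, a difference smaller than the spread within the groups. Their summed level was 61.9 ± 1.92 CPM per kb after Wt1 siRNA and 41.2 ± 2.40 CPM per kb after control siRNA.

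Rragd (gene ID 52187, chromosome 4, 32982998 to 33022180, plus strand) encodes RagD, a partner of RagA or RagB whose gene is known as a target of the MiT/TFE transcription factors. It had 40.0, 48.8 and 34.8 CPM after Wt1 siRNA, against 11.1, 12.7 and 11.0 CPM after control siRNA. Every Wt1 siRNA library lay above every control, and the Wt1 siRNA libraries varied more among themselves. The means were 41.2 ± 7.05 and 11.6 ± 0.92 CPM, and the log2 fold change was 1.83 ± 0.16 (SE). The read counts behind these values were 1077, 1347 and 1114 after Wt1 siRNA and 360, 360 and 294 after control siRNA.

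Rragc (gene ID 54170, chromosome 4, 123917433 to 123936997, plus strand) encodes RagC, the closest relative of RagD. It had 289, 310 and 276 CPM after Wt1 siRNA, against 232, 217 and 248 CPM after control siRNA. The groups did not overlap, and Rragc was 1.26-fold higher (log2 fold change 0.33 ± 0.10, edgeR adjusted p = 0.0413). That call was lost with library size scaling (0.24, adjusted p = 0.120) and when C1, C2, C3, W4 or W5 was left out (adjusted p = 0.0859, 0.0824, 0.0531, 0.138 and 0.142). Of the Rragc exons, 264 bases overlap those of 4930535I16Rik on the opposite strand, and the strand setting of the counting is not stated in the sources used here, so reads of both would not be separated without strand.

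Per kb, Rragd supplied 8.22%, 9.23% and 7.53% of the joint RagC and RagD level in W4 to W6, against 3.01%, 3.63% and 2.80% in C1 to C3. Rragc was the main transcript of the pair in all 6 libraries, at 87.3 ± 5.10 CPM per kb after Wt1 siRNA and 69.5 ± 4.54 after control siRNA. The genes of their partners RagA and RagB were not called. Rraga had 96.8 ± 20.3 CPM after Wt1 siRNA and 82.9 ± 13.2 CPM after control siRNA (edgeR adjusted p = 0.376), and Rragb had 1.39 ± 0.71 and 0.68 ± 0.48 CPM (edgeR adjusted p = 0.337). Rraga and Rragb are close copies, so that the split of reads between them is uncertain.

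The RefSeq promoter windows of Sesn2 and Rragd (GRCm38.p6, 250 bases before the transcript start and 50 after it) are shown because these genes differ most between the groups, and that of Rragc because it holds a motif that Rragd lacks. Each is written 5′ to 3′ on the strand of the gene, with matches to the searched motifs in capitals.
Sesn2, chr4:132510407-132510706, minus strand: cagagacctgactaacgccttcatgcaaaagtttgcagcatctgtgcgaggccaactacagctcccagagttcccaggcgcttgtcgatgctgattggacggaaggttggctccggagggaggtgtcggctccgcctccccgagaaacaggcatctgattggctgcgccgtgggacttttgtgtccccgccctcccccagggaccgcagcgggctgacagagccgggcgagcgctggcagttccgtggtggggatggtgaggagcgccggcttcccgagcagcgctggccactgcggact
Rragd, chr4:32982748-32983047, plus strand: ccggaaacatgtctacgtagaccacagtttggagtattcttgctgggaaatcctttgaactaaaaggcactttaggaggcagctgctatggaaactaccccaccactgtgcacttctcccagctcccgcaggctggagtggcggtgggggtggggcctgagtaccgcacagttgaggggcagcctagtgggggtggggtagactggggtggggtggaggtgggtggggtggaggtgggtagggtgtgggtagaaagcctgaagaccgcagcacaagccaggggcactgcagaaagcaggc
Rragc, chr4:123917183-123917482, plus strand: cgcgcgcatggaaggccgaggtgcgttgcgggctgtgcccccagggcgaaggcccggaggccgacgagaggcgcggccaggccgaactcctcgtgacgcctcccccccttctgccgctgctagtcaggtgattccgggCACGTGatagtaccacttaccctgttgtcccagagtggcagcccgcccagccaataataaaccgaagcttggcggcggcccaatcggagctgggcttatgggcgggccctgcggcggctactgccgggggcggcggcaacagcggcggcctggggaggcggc
Both strands were searched for CACGTG (the core bound by MiT/TFE and other E-box factors), TGATGNAA (the element of ATF4) and GNGTGGGNG (a WT1 and EGR type motif). CACGTG was found in Rragc, 112 bases before the start. None of the 3 motifs occurred in the Sesn2 or Rragd window.

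Flcn (gene ID 216805, chromosome 11, 59791408 to 59810039, minus strand) encodes folliculin, the subunit of the GTPase-activating complex for RagC and RagD. It had 54.9, 58.5 and 58.3 CPM after Wt1 siRNA, against 54.2, 49.9 and 50.5 CPM after control siRNA. The groups were just apart, and the log2 fold change of 0.15 ± 0.11 did not pass (edgeR adjusted p = 0.372).

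Fnip1 (gene ID 216742, chromosome 11, 54438107 to 54518241, plus strand), a folliculin-interacting protein, had 90.8, 73.3 and 90.5 CPM after Wt1 siRNA, against 111, 75.9 and 109 CPM after control siRNA. C2 fell within the range of the Wt1 siRNA libraries, and the log2 fold change of -0.22 ± 0.15 did not pass (edgeR adjusted p = 0.363). Without C2 it was -0.37 (adjusted p = 0.0522), and without C1, C3 or W5 it was -0.12, -0.14 and -0.12. Fnip2, the other FNIP gene, had 65.1 ± 6.96 CPM after Wt1 siRNA and 57.5 ± 4.99 CPM after control siRNA (edgeR adjusted p = 0.353).

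The promoter window of Fnip1 is shown as the other one with CACGTG, which lies 75 bases before the transcript start used for the window. That start differs from the gene start of 54438107 given above. The window also matches GNGTGGGNG on the opposite strand, 106 bases before the same transcript start, and matches are in capitals.
Fnip1, chr11:54437929-54438228, plus strand: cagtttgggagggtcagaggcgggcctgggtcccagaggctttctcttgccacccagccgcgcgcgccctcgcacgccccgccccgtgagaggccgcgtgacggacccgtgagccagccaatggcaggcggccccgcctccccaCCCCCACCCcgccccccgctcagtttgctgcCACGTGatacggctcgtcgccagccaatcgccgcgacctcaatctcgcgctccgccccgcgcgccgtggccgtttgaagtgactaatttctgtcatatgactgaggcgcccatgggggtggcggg
Promoter windows were found for 9 members, 10 windows in all because Sesn1 has a pair of starts, and Eif4ebp1 was not matched. CACGTG was in 2 of the 10 windows and in 7.15% of 32851 mouse windows of the same length. TGATGNAA was in 0 of 10 and in 3.97% of all windows. GNGTGGGNG was in 2 of 10, those of Fnip1 and Sesn3, and in 14.3% of all windows.

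Depdc5 (gene ID 277854, chromosome 5, 32863646 to 32994233, plus strand) encodes a subunit of GATOR1, the complex that switches RagA and RagB off. It had 17.5, 19.7 and 20.9 CPM after Wt1 siRNA, against 20.5, 21.1 and 16.6 CPM after control siRNA. The groups shared most of their range, and the log2 fold change was -0.00 ± 0.15 (edgeR adjusted p = 0.992). Its sign is not determined by these data: it was -0.10 without C3 and 0.07 without W4.

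**Figure D3:**
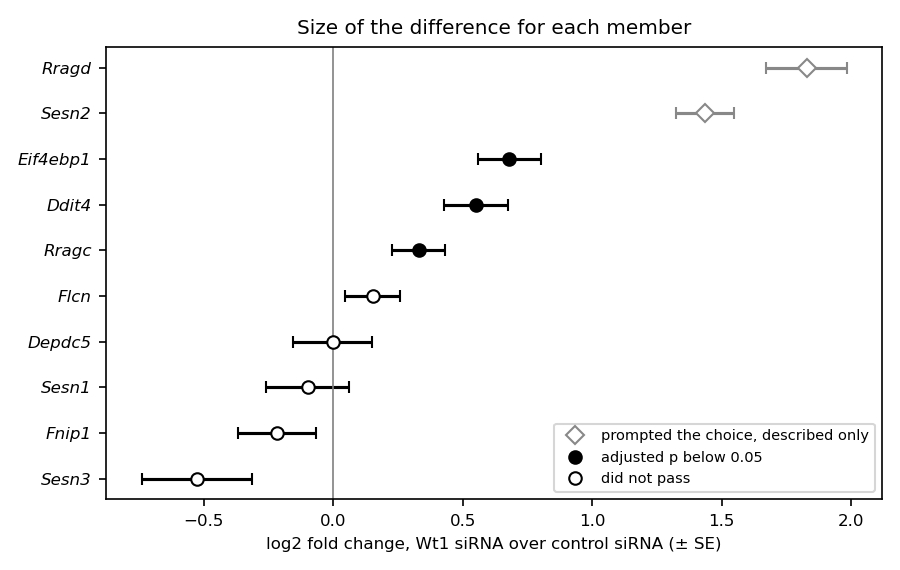
Log2 fold change of each member, Wt1 siRNA over control siRNA, with its standard error as a horizontal bar. Diamonds mark Rragd (1.83) and Sesn2 (1.44), which prompted the choice and are shown as a description; filled circles mark Eif4ebp1, Ddit4 and Rragc, which passed, and open circles the 5 members that did not.

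Ordered by level per kb, the members ran from Ddit4 (106 ± 8.43 CPM per kb) through Rragc, Eif4ebp1 (43.3 ± 2.38), Sesn2 (42.7 ± 3.11), Flcn (13.3 ± 0.47), Fnip1 (11.9 ± 1.41), Rragd (7.97 ± 1.36), Sesn1 (5.32 ± 0.48) and Depdc5 (1.64 ± 0.14) down to Sesn3 (0.91 ± 0.27) after Wt1 siRNA. Neighbours whose libraries overlapped in that order were Eif4ebp1 with Sesn2 and Flcn with Fnip1. After control siRNA the first 4 places were the same, with Ddit4 at 72.1 ± 10.1, Rragc at 69.5 ± 4.54, Eif4ebp1 at 27.0 ± 3.56 and Sesn2 at 15.8 ± 1.30 CPM per kb. The order there went on with Fnip1 (13.9 ± 2.78), Flcn (11.9 ± 0.54), Sesn1 (5.70 ± 1.05), Rragd (2.24 ± 0.18), Depdc5 (1.65 ± 0.21) and Sesn3 (1.32 ± 0.15). Overlapping neighbours among the controls were Ddit4 with Rragc, Sesn2 with Fnip1, Fnip1 with Flcn, and Depdc5 with Sesn3. Sesn2 thus stood at the level of Eif4ebp1 after Wt1 siRNA and at that of Fnip1 after control siRNA, and Rragd stood above Sesn1 after Wt1 siRNA and below it after control siRNA.

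Most other genes of the pathway, listed by function, did not pass. Over 4 lists with 73 tested genes 5 were higher and 6 lower, which is 15.1% against 19.3% of all genes, with a median log2 fold change of 0.09. Among 22 genes of amino acid sensing at the lysosome (Rag and Ragulator subunits, GATOR1, GATOR2, KICSTOR and the amino acid sensors) 1 was higher and 0 lower in edgeR, DESeq2 and limma-voom. At an unadjusted p below 0.05 in edgeR 2 were higher and 2 lower, a threshold met by 4551 of all 14190 tested genes. The higher gene was Bmt2, the S-adenosylmethionine sensor SAMTOR that acts with GATOR1, at 93.7, 104 and 83.7 CPM after Wt1 siRNA and 47.3, 66.1 and 62.4 CPM after control siRNA. Its groups did not overlap (log2 fold change 0.68 ± 0.14, edgeR adjusted p = 0.00563). With library size scaling 2 genes of that list were lower, and 2 were higher without W6 and 1 was lower without C2.

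The core kinase genes stayed close together between the groups. Mtor, the kinase, had 40.8 ± 2.26 CPM after Wt1 siRNA and 40.7 ± 4.51 CPM after control siRNA, and Rptor, the subunit raptor that recruits mTORC1 substrates, had 54.3 ± 1.53 and 50.03 ± 3.97 CPM, and neither passed (edgeR adjusted p = 0.991 and 0.525). Of 12 genes of the mTOR complexes and their assembly factors 0 were higher and 1 lower (edgeR), and 0 were higher with DESeq2 and limma-voom. The edgeR shares of all tested genes were 9.05% higher and 10.3% lower. The counts that follow are again for the 12 genes. At an unadjusted p below 0.05 in edgeR 1 was higher and 1 lower, beside 4551 of all 14190 tested genes in either direction. The lower gene was Prr5l, which encodes a partner of mTORC2, at 5.58, 4.86 and 5.54 CPM after Wt1 siRNA and 9.94, 11.0 and 15.7 CPM after control siRNA (log2 fold change -1.19 ± 0.22, edgeR adjusted p = 0.00304).

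Among 20 genes of the TSC complex, growth factor and energy inputs 3 were higher and 3 lower. Beside them, 9.05% of all tested genes were higher and 10.3% lower. Besides Ddit4l, the higher genes were Prkaa1 and Prkag2, a catalytic and a regulatory subunit of the energy sensor AMPK (log2 fold changes 0.48 ± 0.15 and 0.44 ± 0.13, edgeR adjusted p = 0.0424 and 0.0305). The lower genes were Tsc1, a subunit of the TSC complex that inhibits Rheb, and the AMPK subunit genes Prkab2 and Prkag1 (-0.52 ± 0.12, -0.64 ± 0.16 and -0.50 ± 0.12, edgeR adjusted p = 0.0101, 0.0134 and 0.0137). Tsc1 had 33.1, 30.3 and 29.8 CPM after Wt1 siRNA and 41.2, 47.2 and 44.9 CPM after control siRNA. With library size scaling, or without C1 or W4, 1 gene of the list was higher, and without W4 there was 1 lower. Calls of Prkaa1 (with library size scaling, or without C1, C2, W4 or W6), Prkag2 (with library size scaling, or without C1, W4 or W5), Prkab2 (without C1 or W4) and Prkag1 (without W4 or W5) were lost at adjusted p = 0.0509 to 0.127.

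Of 19 genes acting downstream of mTORC1 or as its substrates 1 was higher, Eif4ebp2, and 2 were lower. In all tested genes these shares were 9.05% and 10.3%. Atg13, a subunit of the autophagy-initiating ULK1 kinase complex, fell to 25.4, 22.6 and 24.8 CPM after Wt1 siRNA, against 42.3, 46.3 and 38.1 CPM after control siRNA (log2 fold change -0.80 ± 0.13, edgeR adjusted p = 0.00123). Tfeb, a MiT/TFE transcription factor that mTORC1 holds in the cytoplasm through RagC and RagD, was at 4.24, 5.11 and 4.41 CPM against 9.13, 9.08 and 6.16 CPM (log2 fold change -0.83 ± 0.24, edgeR adjusted p = 0.0295). The Tfeb call was lost without C1, C2, W4 or W6 (adjusted p = 0.102, 0.0697, 0.112 and 0.0738). The number of higher genes in the list was 0 without W4 or W5 or with library size scaling, and 2 with DESeq2. The number of lower genes was 1 without C1, C2 or W4, and 4 with library size scaling.

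**Figure D4:**
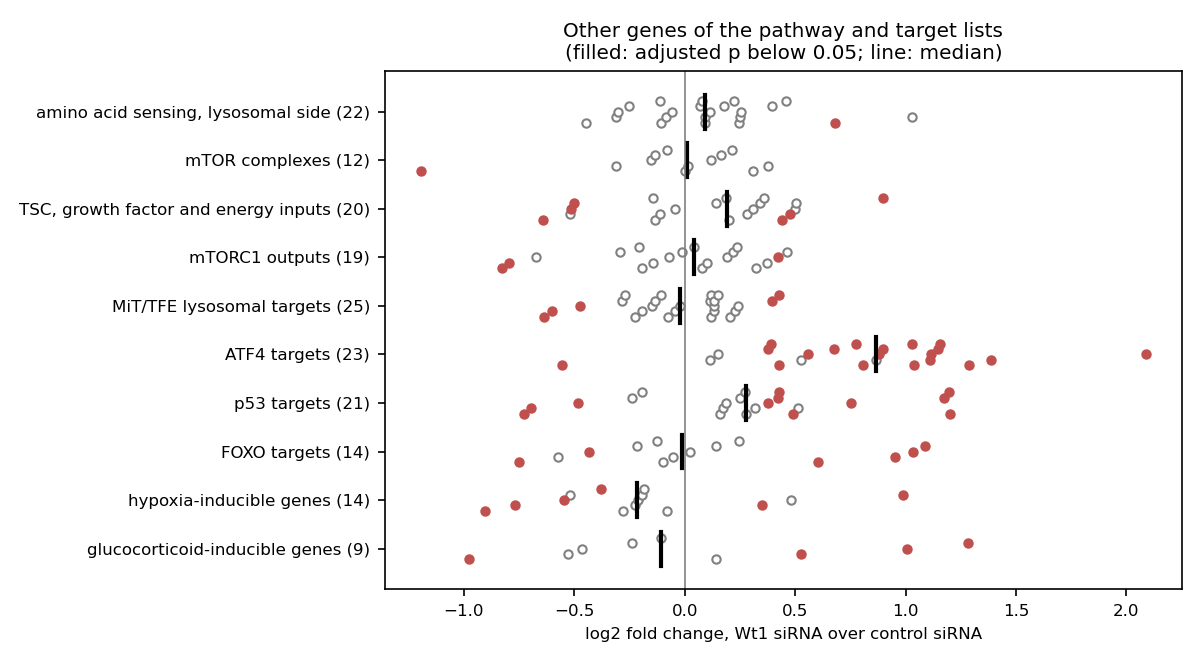
Log2 fold changes, Wt1 siRNA over control siRNA, of the tested genes of 10 lists that leave out the members (numbers in brackets: genes tested). Filled points passed an adjusted p below 0.05, open points did not, and the vertical line in each row is the list median; the ATF4 row is centred at 0.86, while the 4 mTORC1 rows at the top have medians from 0.01 to 0.19.

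Known targets of the factors that act on the members were listed as well, without the members themselves. Beside them, 19.3% of all tested genes passed, 9.05% as higher and 10.3% as lower. Of 25 lysosomal and autophagy genes known as MiT/TFE targets, the class to which Rragd and Flcn also belong, 2 were higher, 3 lower and 20 did not pass (median log2 fold change -0.02). The higher genes were Ctsl, the protease cathepsin L, and Sqstm1, the autophagy receptor p62 (0.40 ± 0.10 and 0.43 ± 0.12, edgeR adjusted p = 0.0204 and 0.0238). The lower genes were Hexa and Gla, lysosomal hydrolases, and Atp6v1h, a subunit of the proton pump (-0.60 ± 0.11, -0.64 ± 0.12 and -0.47 ± 0.11, edgeR adjusted p = 0.00320, 0.00364 and 0.00877). The call of Atp6v1h was lost without W4 (adjusted p = 0.0523). The number of higher genes was 0 with library size scaling or without C3, W4 or W6, and 1 without C1 or W5.

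Of 23 known ATF4 targets, the class to which Sesn2, Ddit4 and Eif4ebp1 also belong, 18 were higher, 1 lower and 4 did not pass (median log2 fold change 0.86). The shares of all tested genes were 9.05% higher and 10.3% lower. That pattern was among the earlier results known when the list was written. Asns (asparagine synthetase), Psph (the last enzyme of serine synthesis) and Cth (cystathionine gamma-lyase) had the smallest p-values. Asns had 271 ± 19.2 CPM after Wt1 siRNA and 125 ± 3.48 CPM after control siRNA (edgeR adjusted p = 4.88e-05), and Cth had 27.3 ± 1.86 and 6.42 ± 1.95 CPM (edgeR adjusted p = 1.02e-04). Psph had 86.5 ± 6.35 CPM after Wt1 siRNA and 38.8 ± 1.85 CPM after control siRNA (log2 fold change 1.15 ± 0.11, edgeR adjusted p = 6.78e-05). The lower gene was Cebpb, a transcription factor (-0.56 ± 0.13, edgeR adjusted p = 0.0125), and the lower count was 0 without W4.

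Of 21 known p53 targets, the class to which Sesn1 and Sesn2 belong, 8 were higher, 3 lower and 10 did not pass (median log2 fold change 0.28). Among all tested genes 9.05% were higher and 10.3% lower. Perp, a membrane protein of p53-dependent apoptosis, rose to 52.8 ± 6.03 CPM after Wt1 siRNA, against 23.4 ± 1.71 CPM after control siRNA, and Btg2, an antiproliferative gene, to 130 ± 9.31 against 77.2 ± 8.04 CPM (edgeR adjusted p = 1.49e-04 and 9.26e-04). Trp53inp1, a p53-induced nuclear protein, had the smallest p of the list, with 227 ± 8.15 CPM after Wt1 siRNA and 99.0 ± 2.76 CPM after control siRNA (log2 fold change 1.20 ± 0.10, edgeR adjusted p = 2.24e-05). The lower genes were Zmat3, Eda2r and Ccng1 (log2 fold changes -0.73 ± 0.11, -0.70 ± 0.12 and -0.48 ± 0.12, edgeR adjusted p = 0.00109, 0.00229 and 0.0134). The number of higher genes was 5 with library size scaling, 4 without W4 and 5 without W5.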

How the data were processed

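The deposited table holds raw whole-number read counts per Entrez gene ID, 1 column per library, and no normalization was applied by the authors to these counts. Builds mm10 and GRCm38 and the tools TopHat, DESeq, bcl2fastq and CASAVA 1.8 are listed, without roles, in the submitters' processing notes; the counting tool, annotation and strand setting are not stated in the sources used here. IDs were matched to RefSeq (GRCm38.p6) for 23976 of 24061 genes, and merged exon lengths came from GENCODE M21.

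The test was edgeR 4.0.16 in R 4.3.3: TMM scaling (factors 0.940 to 1.07), filterByExpr (14190 genes kept), a quasi-likelihood F test of the siRNA group with no other term, and a threshold of 0.05 on p adjusted by Benjamini-Hochberg over all tested genes. The test was also run on 3 simulations of counts, with 200 genes changed in each. It called 22.8% of 1.5-fold, 67.9% of 2-fold and 89.6% of 4-fold changes with the right sign. Of its calls 6.70% were false. Most 1.5-fold changes were thus missed there, so a gene that did not pass may still differ. Standard errors (SE) were obtained as the size of the log2 fold change over the root of its F value. CPM values use the TMM factors. Log2 CPM used a prior count of 2.

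The members, the 10 lists and the tests were chosen with earlier results of these data known. Named genes are the 10 members, Wt1, in each of the 4 mTORC1 lists up to 6 called genes with the smallest p and in each other list up to 3 (29 genes), and the 3 genes with the profile nearest to Sesn2 and to Rragd. Eif4ebp3, Rraga, Rragb, Fnip2, Mtor, Rptor, Cebpb, Ctsl, Sqstm1, Zmat3, Eda2r, Ccng1, Pdk4, Bcl6 and Sgk1 were named after their values were seen, and so were the marker genes. Of the list genes, Kics2 was not analysed here, and Trim63 and Zbtb16 did not pass the low count filter. Alternatives were library size scaling, RLE size factors, DESeq2 1.42.0, limma-voom (limma 3.58.1), robust shrinkage, no low count filter, a filter of 1 CPM in 3 libraries, and leaving out each library.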

Additional observations from a re-analysis of the deposited data

How the results depend on the processing

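No paired analysis was made because no pairing of libraries is stated. The replicate numbers (4 to 6 after Wt1 siRNA, 1 to 3 after control siRNA) do not show whether libraries of the groups share an animal, culture or batch. With a single library left out, the number of genes higher lay between 579 and 1253 and that of genes lower between 785 and 1406, against 1284 and 1459; the lowest of each came without W4, and 836 were higher without W5. Eif4ebp1 and Ddit4 passed, and Sesn3, Flcn and Fnip1 did not pass, under all alternatives tried. Depdc5 had a log2 fold change of 0.00022 with limma-voom and 0.00096 without a low count filter, and ranged from -0.10 to 0.066 with a library left out, where Sesn1 ranged from -0.23 to 0.041. These sign changes lie within the standard errors.

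With library size scaling 2 genes of amino acid sensing, 4 outputs of mTORC1 and 2 glucocorticoid-inducible genes were lower, and 1 gene of the TSC and energy list, 0 outputs, 0 MiT/TFE targets, 5 p53 targets and 1 hypoxia-inducible gene were higher; this scaling moved the median of all genes by -0.09. DESeq2 and the fit without a low count filter each gave 2 higher outputs, and robust shrinkage gave 0 lower glucocorticoid-inducible genes. Other causes of these changes were not tested.

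With a library left out, higher and lower counts ranged as follows: amino acid sensing 1 to 2 and 0 to 1, TSC and energy inputs 1 to 3 and 1 to 3, outputs 0 to 1 and 1 to 2, MiT/TFE targets 0 to 2 and 2 to 3, ATF4 targets 12 to 20 and 0 to 1, p53 targets 4 to 8 and 2 to 3, FOXO targets 2 to 4 and 0 to 2, hypoxia-inducible genes 1 to 2 and 2 to 4, and glucocorticoid-inducible genes 3 throughout and 0 to 2.

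Shares of a family depend on the length used. From CPM without length, Sesn2 held 80.8% after Wt1 siRNA and 56.1% after control siRNA, and Rragd 12.3% and 4.79%. With the longest transcript in place of merged exons Sesn2 held 85.7% and 65.9%. Rragb, Eif4ebp3, Ddit4l and Tfeb were each at under 12 CPM in every library.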

Other observations

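Lists for other known regulators of the members moved in both directions. The shares of all tested genes, beside which the FOXO, hypoxia and glucocorticoid lists are given, were 9.05% higher and 10.3% lower. Of 14 tested FOXO targets, the class to which Sesn3 belongs, 4 were higher and 2 lower, with a median log2 fold change of -0.01. Txnip, an inhibitor of thioredoxin and of glucose uptake, rose to 374 ± 30.1 CPM after Wt1 siRNA, against 176 ± 14.0 CPM after control siRNA (edgeR adjusted p = 8.27e-05). Cited2, a transcriptional coregulator, rose to 221 ± 18.8 against 114 ± 12.2 CPM (edgeR adjusted p = 2.46e-04), and Pik3ip1, an inhibitor of PI3 kinase, to 20.8 ± 2.73 against 10.2 ± 3.91 CPM (edgeR adjusted p = 0.0101, and 0.0511 without W4). The lower genes were Pdk4 and Bcl6 (log2 fold changes -0.75 ± 0.18 and -0.43 ± 0.12, edgeR adjusted p = 0.0133 and 0.0296). The higher count was 2 without W4. The lower count was 0 without C1 and 1 without C3, W4 or W5.

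Ddit4 is known to respond to hypoxia and to glucocorticoids. Of 14 hypoxia-inducible genes 2 were higher and 4 lower, with a median of -0.22. Ero1l, a protein-folding oxidase, rose to 1119 ± 39.7 CPM after Wt1 siRNA, against 564 ± 17.7 CPM after control siRNA, while Ndrg1 fell to 137 ± 10.6 against 256 ± 22.0 CPM and Egln3, an oxygen-sensing prolyl hydroxylase, to 52.3 ± 6.81 against 89.0 ± 8.61 CPM (edgeR adjusted p = 6.40e-05, 2.51e-04 and 0.00160). The higher count was 1 with library size scaling and without C1, C3, W4 or W5, and the lower count was 2 without W4. Of 9 tested glucocorticoid-inducible genes 3 were higher and 1 lower, with a median of -0.11. Dusp1, a MAP kinase phosphatase, rose to 112 ± 10.7 against 46.0 ± 5.99 CPM, Tsc22d3, the leucine zipper protein GILZ, to 34.2 ± 4.34 against 17.0 ± 0.99 CPM, and Klf9, a transcription factor, to 114 ± 9.55 against 79.2 ± 8.28 CPM (edgeR adjusted p = 7.96e-05, 5.68e-04 and 0.00824). The lower gene was Sgk1 (log2 fold change -0.98 ± 0.27, edgeR adjusted p = 0.0263). The lower count was 2 with library size scaling or without W6, and 0 without C1, C3, W4 or W5.

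Among all tested genes the log2 CPM profiles over the 6 libraries nearest to that of Sesn2, each centred on its own mean, were those of Fbln5, Loxl4 and Slc19a2 (root mean square difference 0.0921, 0.0983 and 0.107). Those nearest to Rragd were 4930486L24Rik, Nox4 and Slc40a1 (0.120, 0.142 and 0.159). Such nearness is set mainly by the size of the difference between the groups. Fbln5 had 263 ± 28.6 CPM after Wt1 siRNA and 89.9 ± 7.08 CPM after control siRNA, and Slc40a1 had 27.8 and 7.69 CPM on average.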
